A study of Mus musculus with 2 samples.

Results

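The miR-17-92 and miR-106b-25 clusters are a pair of related microRNA clusters, each cut from 1 primary transcript, and 10 of their mature microRNAs were examined in mouse liver after ethanol feeding. The members were chosen by name, and not by their values, although earlier results of these data were known. There were 7 from miR-17-92 (mmu-miR-17-5p, mmu-miR-18a-5p, mmu-miR-19a-3p, mmu-miR-19b-3p, mmu-miR-20a-5p, mmu-miR-92a-3p and mmu-miR-92a-1-5p) and 3 from miR-106b-25 (mmu-miR-106b-5p, mmu-miR-93-5p and mmu-miR-25-3p). All 10 were among the 484 microRNAs listed in the first of 2 deposited tables (experiment 1) and among the 1915 listed in the second (experiment 2). Each table held 1 pair-fed and 1 ethanol-fed library, so no spread between animals could be given and the 4 libraries are described one by one.

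The mice were female C57BL/6 animals of 8 to 10 weeks, without a genetic change. All of them took the control Lieber-DeCarli liquid diet for 5 days. The ethanol-fed mice then had this diet with 5% (v/v) ethanol over 10 days and, on day 16, a gavage of ethanol at 6 g/kg. The pair-fed mice had a diet of equal calories and a gavage of dextrin-maltose, and the livers of both groups were removed 9 h after it. The design text speaks of 16 days of ethanol instead. The number of animals or pools behind a library was not named.

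A microRNA is cut from a hairpin precursor whose 2 arms can each give a mature strand, called 5p and 3p. The mature strand guides Argonaute proteins to messenger RNAs, mainly through its seed, bases 2 to 8, so microRNAs with the same seed tend to share targets. The miR-17-92 cluster is a target of the transcription factor MYC that promotes proliferation and survival, for instance through repression of Bim. The miR-106b-25 cluster sits in the gene of a DNA replication factor, Mcm7, and restrains Cdkn1a and Bim.

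The mature sequences below are shown because the results are given by seed group as well as by cluster. They were taken from RefSeq (GRCm38.p6), which held all 10, and are printed 5′ to 3′ with the seed in capitals.
mmu-miR-17-5p: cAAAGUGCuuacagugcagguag
mmu-miR-20a-5p: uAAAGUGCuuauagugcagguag
mmu-miR-106b-5p: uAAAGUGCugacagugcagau
mmu-miR-93-5p: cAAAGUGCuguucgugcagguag
mmu-miR-18a-5p: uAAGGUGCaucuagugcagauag
mmu-miR-19a-3p: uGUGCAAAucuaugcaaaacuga
mmu-miR-19b-3p: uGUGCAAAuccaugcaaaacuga
mmu-miR-92a-3p: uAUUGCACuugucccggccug
mmu-miR-25-3p: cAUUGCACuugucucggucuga
mmu-miR-92a-1-5p: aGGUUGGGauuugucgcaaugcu

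The miR-17 seed AAAGUGC was carried by 4 members from both clusters, and the miR-92 seed AUUGCAC by 1 member of each cluster. The miR-19 seed GUGCAAA was carried by miR-19a-3p and miR-19b-3p, both of the miR-17-92 cluster. The seeds of miR-18a-5p (AAGGUGC) and of miR-92a-1-5p (GGUUGGG) were each carried by a single member. Several members are close copies of one another. Counted from the 5′ end, miR-19a-3p and miR-19b-3p differ by the substitution U11C, and miR-17-5p and miR-20a-5p by C1U and C12U. Reads of such pairs can be split between them by the counting, which is not described in the sources used here.

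In GRCm38, the 6 hairpins of miR-17-92 span 836 bp of the plus strand of chromosome 14 (chr14:115043671-115044506). All 6 lie in exon 2 of the annotated transcript of the host gene Mir17hg, a non-coding RNA (ENSMUSG00000089726.2). The 3 hairpins of miR-106b-25 span 498 bp of the minus strand of chromosome 5 (chr5:138165321-138165818), within Mcm7 (ENSMUSG00000029730.16). Of the 10 annotated Mcm7 transcripts, 2 hold these hairpins in an intron, after exon 13 and after exon 8, and 1 has Mir93 and Mir25 within an exon. A second copy of miR-19b-3p and of miR-92a-3p, with the same mature sequence, lies on the X chromosome in the paralogous miR-106a-363 cluster (Mir19b-2 and Mir92-2), so the reads of both names can come from either locus.

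Experiment 1 gave whole reads, with 4170601 on microRNAs after pair-feeding and 4311802 after ethanol. Experiment 2 gave RPM (reads scaled to 1000000 microRNA reads), whose low values rose in steps that correspond to about 10811850 and 10819740 reads. No value between 0 and 0.92 RPM was listed in experiment 2, so a microRNA listed at 0 there may have had reads. The liver label was checked with 4 hepatocyte microRNAs, which were present in all 4 libraries and together held between 291653 and 392319 RPM. In experiment 1 a single one of them, miR-192-5p, which is not specific to liver, carried this sum with 388161 and 373090 RPM. The liver-specific miR-122-5p was low there and differed between the experiments, with 2971 and 2210 RPM in experiment 1 and 182938 and 156660 RPM in experiment 2, the pair-fed value first, so in experiment 1 the label does not rest on its defining marker. Levels were therefore compared within an experiment. Wherever a pair of levels follows a microRNA, the first is that of the pair-fed and the second that of the ethanol-fed library.

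The most abundant members were the 2 that carry the miR-92 seed. In experiment 1, miR-25-3p was the highest member in both libraries, with 1257 and 1307 RPM, followed by miR-92a-3p with 923 and 1159 RPM. In experiment 2 the order was turned, with miR-92a-3p at 2256 and 2052 RPM and miR-25-3p at 987 and 699 RPM. In each library the exact 95% Poisson intervals of these 2 levels did not overlap.

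Below them, the order depended on the experiment. In experiment 1, miR-19b-3p came next with 183 and 162 RPM, then miR-93-5p with 142 and 162 RPM, and in the ethanol-fed library the intervals of these 2 overlapped. The next was miR-19a-3p with 30.9 and 20.6 RPM, whereas miR-17-5p, miR-20a-5p, miR-92a-1-5p and miR-106b-5p held between 2.88 and 6.71 RPM, with overlapping intervals between neighbours, and miR-18a-5p had 1 and 2 reads. In experiment 2, miR-20a-5p stood beside miR-19b-3p (402 and 203 RPM) with 352 and 230.3 RPM, and its interval overlapped that of miR-93-5p (331 and 220.5 RPM) in both libraries. Here miR-17-5p (143 and 108 RPM) lay above miR-106b-5p (61.0 and 39.4 RPM) and miR-19a-3p (52.6 and 25.2 RPM), the latter 2 overlapping in the pair-fed library. At the low end were miR-18a-5p (3.33 and 2.77 RPM) and miR-92a-1-5p, which overlapped in the ethanol-fed library.

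**Figure D1:**
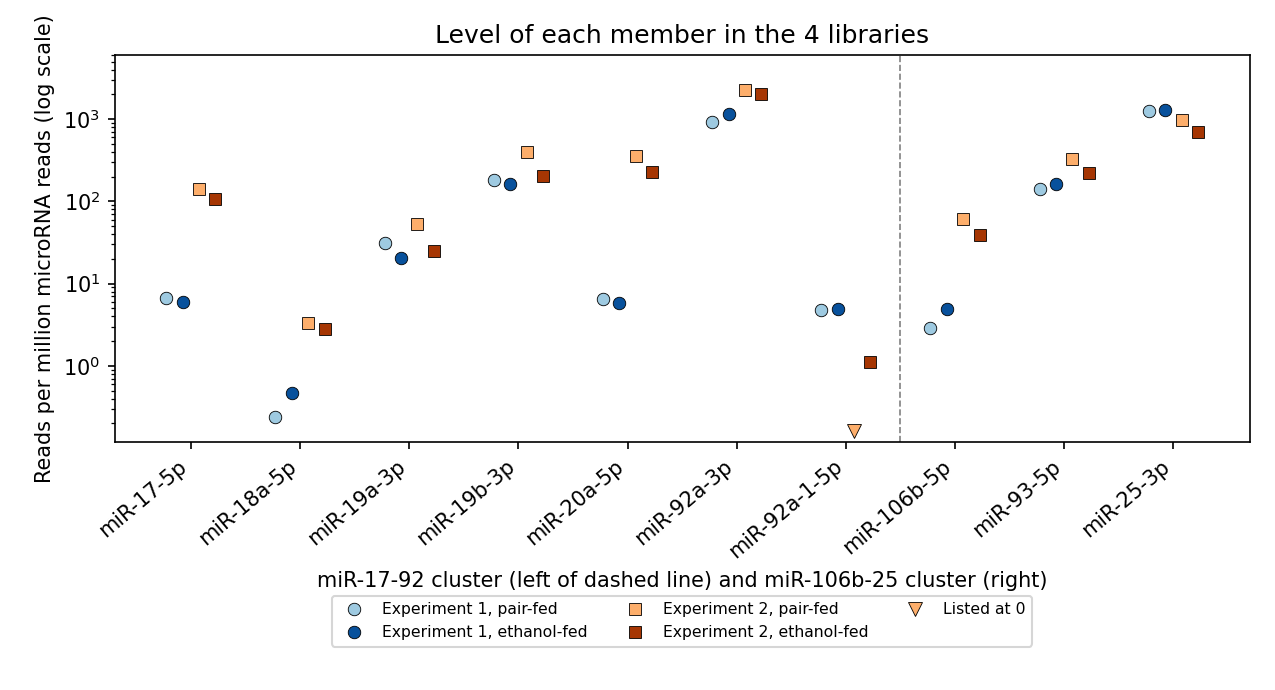
The plot gives the level of each of the 10 members (x axis) in RPM (y axis, log scale) in the 4 libraries, with circles for experiment 1, squares for experiment 2 and a triangle for a value listed at 0. miR-92a-3p and miR-25-3p are the highest in every library, while miR-17-5p, miR-20a-5p and miR-106b-5p stand far higher in experiment 2 than in experiment 1.

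The gap between the experiments was wide for some members of the miR-17 seed group and narrow for another. Between the pair-fed libraries, miR-20a-5p was 54.4-fold, miR-17-5p 21.3-fold and miR-106b-5p 21.2-fold higher in experiment 2. Their seed partner miR-93-5p was 2.33-fold higher, which was also the median over the 277 microRNAs above 0 in both pair-fed libraries. The values of miR-92a-3p (2.44-fold), miR-19b-3p (2.20-fold) and miR-19a-3p (1.70-fold) lay near that median, and miR-25-3p was lower in experiment 2 (0.785-fold). As a result, miR-93-5p made up 89.8% of the reads of the miR-17 seed group in the pair-fed library of experiment 1 (95% Wilson interval 87.3 to 91.9%), but 37.3% in that of experiment 2 (36.3 to 38.3%). These values are a description, since the experiments were counted and scaled separately, and the part of library preparation in them was not tested.

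Whether ethanol feeding moved the clusters was asked within each experiment, with log2 ratios (ethanol-fed to pair-fed RPM, so that a value under 0 means less after ethanol) after 1 read was added to each library. A 95% interval for the counting error was computed from the exact conditional binomial distribution. No molecular identifiers are mentioned for the libraries, so this interval covers counting error only and says nothing of the spread between mice. In bulk liver, fewer cells of a type and less RNA per cell cannot be told apart.

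In experiment 1 the members stayed close to the other microRNAs of the table. Of the 9 members with at least 10 reads in the 2 libraries together, 0 were at least 2-fold higher and 0 at least 2-fold lower in the ethanol-fed library, beside 12.6% and 12.9% of all 302 microRNAs with this many reads. A log2 ratio under 0 was found for 4 of the 9 members, beside 51.3% of all. The median log2 ratio was 0.02 over the members and -0.01 over all. In experiment 2, in contrast, 9 of the 10 members had a log2 ratio under 0, beside 49.7% of all 469 microRNAs. The median log2 ratio was -0.54 over the 10 members. Over the 9 members above 0 in both libraries it was -0.59, while it was 0.01 over the 402 such microRNAs, whose 10th and 90th percentiles were -0.91 and 0.70. Only miR-19a-3p was at least 2-fold lower, beside 15.1% of all microRNAs, and miR-92a-1-5p counted as at least 2-fold higher, beside 10.7%, through a value listed at 0. Both shares are over the 469, which include microRNAs listed at 0 in either library, and each of these passes 2-fold through that 0. Among the 402 above 0 in both, neither the 10th percentile (-0.91) nor the 90th (0.70) reached a 2-fold difference.

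The miR-19 pair was lower in the ethanol-fed library of both experiments. In experiment 1, miR-19a-3p had 129 and 89 reads (30.9 and 20.6 RPM), a log2 ratio of -0.58 (-0.99 to -0.18). In experiment 2 it had 52.6 and 25.2 RPM, a log2 ratio of -1.06 (-1.27 to -0.85). The ethanol-fed library was thus the lower one in each experiment by more than the counting error. For miR-19b-3p, experiment 1 gave 762 and 699 reads (183 and 162 RPM), and the log2 ratio of -0.17 lay just outside counting error (-0.32 to -0.02). With median-of-ratios scaling it was -0.14, with an interval (-0.29 to 0.01) that held 0. In experiment 2, miR-19b-3p was at 402 and 203 RPM, a log2 ratio of -0.99 (-1.06 to -0.91). Summed over the pair, the level went from 214 to 183 RPM in experiment 1 (log2 ratio -0.23, -0.37 to -0.09) and from 454 to 228 RPM in experiment 2 (-0.996, -1.07 to -0.93).

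The miR-17 seed group, whose targets include the cell cycle inhibitor Cdkn1a, showed no common direction in experiment 1 and a common one in experiment 2. In experiment 1, miR-17-5p had 28 and 26 reads and miR-20a-5p 27 and 25 reads. At this depth no difference was detectable for either, with log2 ratios of -0.15 (-0.98 to 0.67) and -0.15 (-1.004 to 0.68). The 12 and 21 reads of miR-106b-5p gave 0.71, with an interval from -0.33 to 1.92 that also held 0. Only miR-93-5p was deep enough for a narrow interval, and its 592 and 698 reads (142 and 162 RPM) gave 0.19 (0.03 to 0.35). When the most abundant microRNA was left out of the totals, this became 0.15, and the interval (-0.0056 to 0.31) just reached 0. In experiment 2 all 4 were lower in the ethanol-fed library. The level of miR-17-5p was 143 and 108 RPM, a log2 ratio of -0.41 (-0.52 to -0.30). That of miR-20a-5p was 352 and 230.3 RPM (-0.61, -0.69 to -0.54), that of miR-106b-5p 61.0 and 39.4 RPM (-0.63, -0.81 to -0.45), and that of miR-93-5p 331 and 220.5 RPM (-0.59, -0.66 to -0.51). The 4 log2 ratios thus lay between -0.63 and -0.41, each beyond counting error. miR-18a-5p, from the same cluster and with a seed that differs from that of miR-17-5p by A4G, had too few reads for a ratio in experiment 1, and its 3.33 and 2.77 RPM in experiment 2 gave -0.26, with an interval (-1.01 to 0.48) that held 0.

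The abundant miR-92 seed group had ratios on opposite sides of 0 in the 2 experiments. miR-92a-3p, an inhibitor of vessel growth in endothelial cells, had 3849 and 4998 reads (923 and 1159 RPM) in experiment 1, a log2 ratio of 0.33 (0.27 to 0.39). In experiment 2 it was at 2256 and 2052 RPM, a log2 ratio of -0.14 (-0.16 to -0.11). Its partner miR-25-3p had 5241 and 5635 reads (1257 and 1307 RPM) in experiment 1, a log2 ratio of 0.06 whose lower bound was 0.0020 and whose upper bound was 0.11. With totals that leave out the most abundant microRNA it was 0.02 (-0.03 to 0.08). In experiment 2 it was at 987 and 699 RPM, with a log2 ratio of -0.50 (-0.54 to -0.45). The ethanol-fed library was therefore the higher one for miR-92a-3p in experiment 1 and the lower one for both in experiment 2, while the higher level of miR-25-3p in experiment 1 depended on the scaling.

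The passenger strand miR-92a-1-5p is the only product of the Mir92-1 hairpin that the X-linked copy cannot give. It had 20 and 21 reads in experiment 1, a log2 ratio of 0.02 (-0.93 to 0.98). In experiment 2 its pair-fed level was listed at 0, and its ethanol-fed level was 1.11 RPM, about 12 reads. Since values under 0.92 RPM were not listed, the first level may lie close to the second, and a 2-fold difference was not shown.

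**Figure D2:**
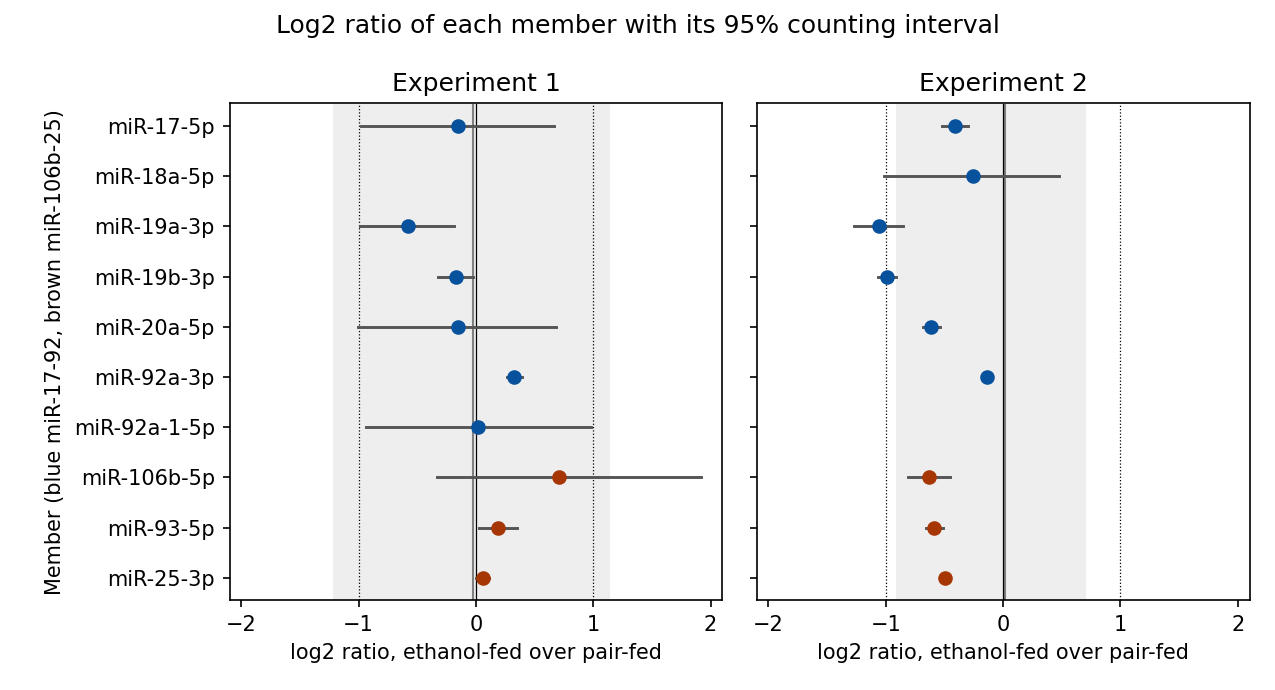
Each point is the log2 ratio (x axis, ethanol-fed to pair-fed) of 1 member (y axis) in experiment 1 (left) or experiment 2 (right), with its 95% counting interval. The grey band spans the 10th to 90th percentile and the grey line the median of all microRNAs above 0 in both libraries, and the dotted lines mark a 2-fold difference. In experiment 2 the 9 plotted members lie below 0, with miR-19a-3p at -1.06 and miR-92a-3p at -0.14, whereas in experiment 1 they lie on both sides of 0.

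Across the 9 members with enough reads in both experiments, 4 were lower in the ethanol-fed library both times (miR-17-5p, miR-19a-3p, miR-19b-3p and miR-20a-5p, all from miR-17-92). Another 4 were higher in experiment 1 and lower in experiment 2, namely miR-92a-3p and the whole of miR-106b-25. The remaining one, miR-92a-1-5p, was higher both times, by 1 read in experiment 1, which lies within counting error, and from a value listed at 0 in experiment 2. Of the 283 microRNAs with enough reads in both, 23.0% were lower in both, 23.3% higher and then lower, 24.7% higher in both and 29.0% lower and then higher. For the members whose interval held 0 in experiment 1 (miR-17-5p, miR-20a-5p, miR-92a-1-5p and miR-106b-5p), the direction in that experiment lies within counting error.

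A fit with limma on log2(RPM + 1) over the 4 libraries, with the experiment as a term, took the 2 libraries of a condition as replicates, which the labels do not state. With 1 residual degree of freedom, it called 0% of the 353 microRNAs tested at an adjusted p under 0.05, and 8 had an unadjusted p under 0.05, of which 0 were members. The member with the smallest unadjusted p was miR-19a-3p, with a log2 change of -0.80 (SE 0.40, limma adjusted p = 0.940). It was followed by miR-19b-3p with -0.58 (SE 0.30, limma adjusted p = 0.940). No difference in a member was thus shown over the 2 experiments beyond the variation between their libraries.

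The reads summed over a cluster followed its most abundant member. The miR-17-92 sum was 1155 and 1359 RPM in experiment 1, a log2 ratio of 0.23 (0.18 to 0.29), and 3209 and 2622 RPM in experiment 2, a log2 ratio of -0.29 (-0.31 to -0.27). The share of miR-92a-3p in it was between 70.3% and 85.3% in the 4 libraries. Without miR-92a-3p, the log2 ratio of the sum turned to -0.21 in experiment 1 and was -0.74 in experiment 2. The miR-106b-25 sum was 1401 and 1474 RPM in experiment 1 (0.07, 0.02 to 0.12) and 1378 and 959 RPM in experiment 2 (-0.52, -0.56 to -0.49), and miR-25-3p held between 71.6% and 89.7% of it. Together the 10 members took 0.256% and 0.283% of all microRNA reads in experiment 1, and 0.459% and 0.358% in experiment 2.

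Members cut from 1 transcript were then set against each other within a library, where the total of the library cancels. The 2 miR-19 members lost ground to miR-92a-3p in both experiments. In experiment 1 there were 0.198 and 0.140 reads of miR-19b-3p per read of miR-92a-3p, and in experiment 2 there were 0.178 and 0.0987. As log2 differences these were -0.50 (95% counting interval -0.66 to -0.34) and -0.85 (-0.93 to -0.77). For miR-19a-3p against miR-92a-3p the log2 differences were -0.91 (-1.31 to -0.52) and -0.92 (-1.13 to -0.71). These were the 2 pairs, out of 13 that could be compared in both experiments, whose interval left out 0 both times, and both had the same sign each time. Because miR-19b-3p and miR-92a-3p also have an X-linked copy, their ratio is not that of 1 locus alone.

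In experiment 2, where the depth allowed it, miR-17-5p and miR-20a-5p also lost ground to miR-92a-3p, by log2 differences of -0.27 (-0.38 to -0.16) and -0.48 (-0.55 to -0.40). In experiment 1 the same differences were -0.48 and -0.49, but with intervals from -1.26 to 0.29 and from -1.28 to 0.30. The intervals of 12 of the 18 pairs compared in experiment 2 left out 0, against 2 of 18 in experiment 1. Among the 3 members of miR-106b-25 the differences were small in experiment 2, and in experiment 1 all their intervals held 0. Their log2 differences in experiment 2 were -0.05 for miR-106b-5p against miR-93-5p (-0.24 to 0.14), -0.14 for miR-106b-5p against miR-25-3p (-0.32 to 0.04) and -0.09 for miR-93-5p against miR-25-3p (-0.17 to -0.0027).

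The same shift appears in the shares of the seed groups. The miR-19 seed group made up 8.36% of the reads of all members in the pair-fed library of experiment 1 (95% Wilson interval 7.85 to 8.90%) and 6.45% after ethanol (6.03 to 6.90%). In experiment 2 its share was 9.90% (9.64 to 10.2%) and 6.36% (6.12 to 6.61%). The share of the miR-92 seed group was the larger in the ethanol-fed library both times, at 85.3% and 87.1% in experiment 1 and at 70.7% and 76.8% in experiment 2. Within this group only miR-92a-3p had the larger share after ethanol, at 36.1% and 40.9%, then 49.2% and 57.3%. The share of miR-25-3p was the smaller after ethanol in both experiments, at 49.2% and 46.1%, then 21.5% and 19.5%. The miR-17 seed group differed between the experiments, with 6.18% and 6.30% in experiment 1, where the intervals overlapped, and 19.3% and 16.7% in experiment 2.

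**Figure D3:**
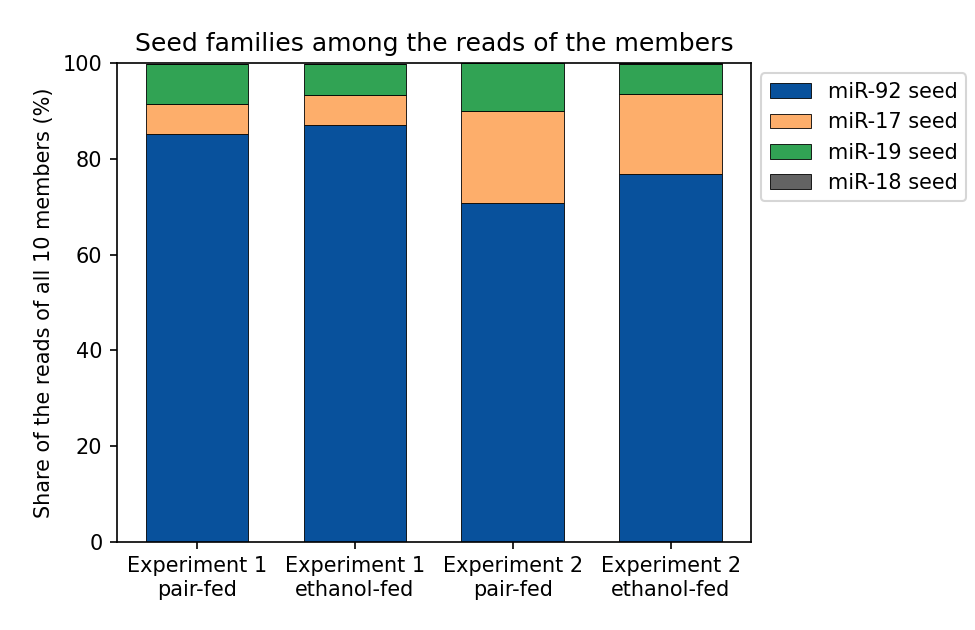
Stacked bars give the share of the reads of all 10 members (y axis, percent) that each seed group held in the 4 libraries; miR-92a-1-5p has a seed of its own and is counted in the total but not drawn. The miR-19 part is smaller in the ethanol-fed than in the pair-fed library of both experiments (8.36% and 6.45%, then 9.90% and 6.36%).

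The other arms of the hairpins were scarce, with 1 exception. From Mir106b, the arm that is not a member, mmu-miR-106b-3p, gave more reads than miR-106b-5p in every library. The hairpin is on the minus strand at chr5:138165737-138165818 of GRCm38.p6 and is shown because both arms were sequenced in number; its arms, first 5p and then 3p, are in capitals.
Mir106b hairpin: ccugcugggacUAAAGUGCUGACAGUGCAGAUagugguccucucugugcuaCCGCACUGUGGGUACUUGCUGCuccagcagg

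In experiment 1, miR-106b-3p had 114 reads beside 12 of the 5p arm after pair-feeding and 168 beside 21 after ethanol, which is 90.5% (95% Wilson interval 84.1 to 94.5%) and 88.9% (83.6 to 92.6%) of the reads of both arms. In experiment 2 it had 103 RPM beside 61.0 and 81.1 RPM beside 39.4, or 62.8% (60.5 to 65.04%) and 67.3% (64.7 to 69.8%). The 3p arm thus led in the 4 libraries. The intervals of its share overlapped between the 2 libraries of experiment 1. In experiment 2 they overlapped only from 64.7 to 65.04%, which does not show that the share was equal. The log2 ratio of miR-106b-3p was 0.51 (0.16 to 0.87) in experiment 1 and -0.35 (-0.48 to -0.22) in experiment 2, so it lay on the same side of 0 as miR-106b-5p each time.

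For the remaining hairpins with a single member, that member had more reads than the other arm wherever both were listed. Both arms of Mir92-1 are members, and miR-92a-3p led there. In experiment 2, miR-17-3p had 7.12 and 4.25 RPM, between 3.79% and 4.74% of both arms. The least uneven was Mir18, where miR-18a-3p had 2.13 and 0.92 RPM, or 39.0% (27.6 to 51.7%) and 25.0% (14.2 to 40.2%) of about 59 and 40 reads. The pair-fed interval held an even split of the arms, so a leading arm was not shown there beyond counting error. miR-93-3p had 8 and 3 reads in experiment 1 and 2.31 and 2.59 RPM in experiment 2, at most 1.33% of both arms. miR-25-5p had 21 and 8 reads in experiment 1 and 2.03 and 1.76 RPM in experiment 2, at most 0.399%. miR-20a-3p was found with 5 and 8 reads in experiment 1, and was listed at 0 in both libraries of experiment 2, where its partner was far more abundant. miR-19a-5p and miR-19b-1-5p were listed at 0 in experiment 2 and had no row in experiment 1.

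**Figure D4:**
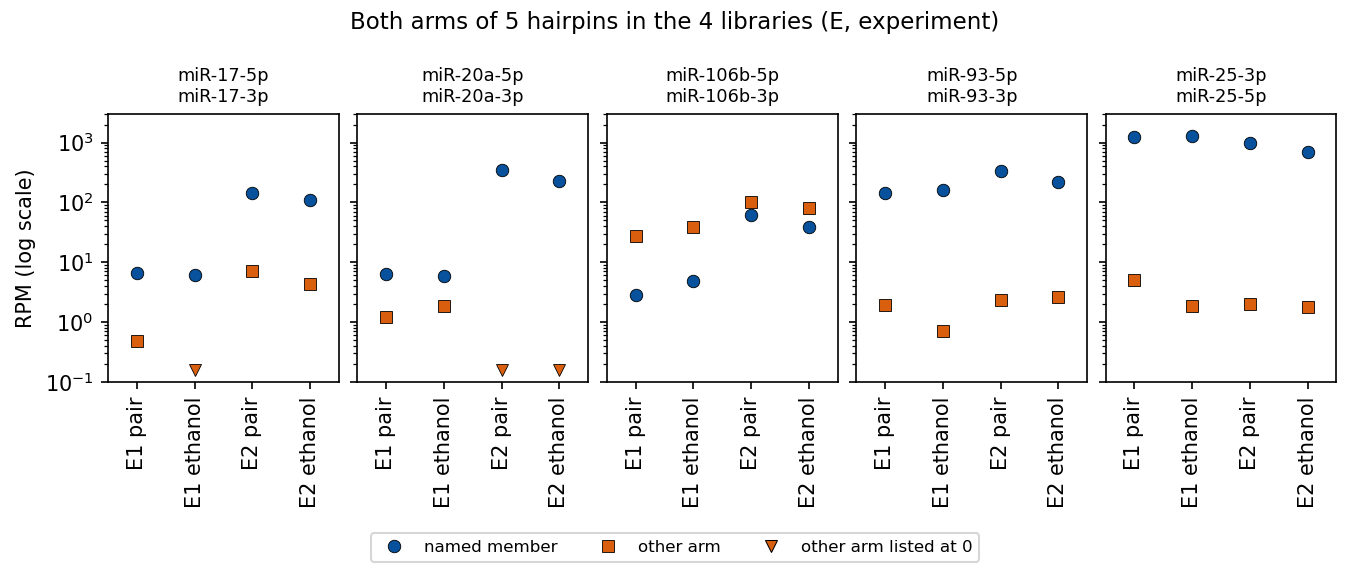
For 5 hairpins, circles give the member and squares the other arm in RPM (y axis, log scale) in the 4 libraries (x axis, E1 and E2 for the experiments), with triangles for values listed at 0. The other arm lies above the member only in the middle panel, where miR-106b-3p exceeds miR-106b-5p in each library.

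Of the microRNAs related to the members but outside both clusters, only miR-32-5p was above 3 RPM in experiment 2. Of the paralogous miR-106a-363 cluster on the X chromosome, mmu-miR-106a-5p, which differs from miR-17-5p by U10A, had 2.68 and 1.02 RPM in experiment 2. mmu-miR-20b-5p, which differs from miR-20a-5p by U1C and U10C, had 2.40 and 0.92 RPM, and mmu-miR-363-3p had 1.85 and 1.57 RPM. The other 3 names of this cluster (miR-18b-5p, miR-19b-2-5p and miR-92a-2-5p) were listed at 0, and in experiment 1 only miR-363-3p was listed, with 1 and 0 reads. Elsewhere in the genome, the miR-92 seed was carried by mmu-miR-32-5p, which had 37 and 16 reads in experiment 1 (log2 ratio -1.21, -2.20 to -0.38) and 103 and 90.8 RPM in experiment 2 (-0.18, -0.31 to -0.06). In experiment 2 it thus stood above miR-106b-5p and miR-19a-3p. It was lower in the ethanol-fed library both times, unlike miR-92a-3p and miR-25-3p. mmu-miR-92b-3p had 31 and 43 reads in experiment 1 and 2.59 and 2.77 RPM in experiment 2, with intervals that held 0, and miR-367-3p and miR-6383 were listed at 0 in experiment 2.

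By the distance between pairs of log2 ratios (experiment 1, experiment 2), the microRNAs most like the median of the members, 0.02 and -0.59, were sought among 142 others with at least 100 reads in each table. The nearest was mmu-miR-16-5p (0.04 and -0.43), followed by mmu-miR-322-5p (0.09 and -0.38) and mmu-miR-151-5p (0.05 and -0.37). This likeness rests on 2 values per microRNA.

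Blood cell microRNAs moved with the members in experiment 2. The 4 red cell microRNAs (miR-451a, both arms of miR-144, and miR-486a-5p) together held 1826 and 1152 RPM in experiment 2, and 4 of 4 were lower. In experiment 1 they held 11559 and 33915 RPM, and 4 of 4 were higher. That sum was carried by miR-486a-5p with 11512 and 33721 RPM, while miR-451a had 25.7 and 133 RPM. The 5 white cell microRNAs (miR-223-3p, both arms of miR-142a, miR-150-5p and miR-155-5p) held 886 and 473 RPM in experiment 2, with 5 of 5 lower, and 404 and 336 RPM in experiment 1, with 4 of 5 lower. The exception was miR-155-5p, with 0 and 4 reads in experiment 1. The red cell list was thus higher and then lower, as were miR-92a-3p and the 3 members of miR-106b-25, and the white cell list was lower in both experiments, as was the miR-19 pair. The part of blood cells in the values of the members was not tested.

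Of the other liver cells, the 4 hepatocyte microRNAs together held 392319 and 376533 RPM in experiment 1 and 324324 and 291653 RPM in experiment 2, and 3 of 4 were lower each time. The hepatocyte sum was thus lower in the ethanol-fed library of both experiments, as was the miR-19 pair. The 2 arms of the endothelial miR-126a were higher in the ethanol-fed library both times, with sums of 3854 and 5142 RPM and of 22335 and 26332 RPM. The 4 mesenchymal microRNAs held 96518 and 96073 RPM in experiment 1, where 3 of 4 were higher and miR-143-3p, the lower one, carried the sum with 96276 and 95735 RPM. In experiment 2 they held 18978 and 24067 RPM, with 2 of 4 higher. The part of these cell types in the values of the members was not tested either.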

How the data were processed

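Small RNA libraries of mouse liver were size-selected on polyacrylamide gels, amplified by RT-PCR and sequenced on an Illumina HiSeq, while the labels name a TruSeq RNA kit. For experiment 1 the authors deposited read counts per microRNA as they were, not normalized. The values the authors deposited for experiment 2 are RPM over all microRNA reads, with both columns repeated and with fold changes and p-values of their own, which were not used. The labels name the build mm8. How reads were aligned, annotated and filtered is not given in the sources used here. Columns were assigned to the conditions by name, since the labels hold 1 sample per condition, and 0 columns were left without a condition.

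In experiment 2, reads were estimated from the steps of the values under 60 RPM, of which 97.0% of 296 (pair-fed) and 96.6% of 291 (ethanol-fed) lay on a step of 0.0925 and 0.0924 RPM. A count of 0 in experiment 1 allows up to 0.719 RPM (3 reads) after pair-feeding and 0.696 RPM after ethanol. Log2 ratios used a pseudocount of 1 read and a minimum of 10 reads in the 2 libraries together, and were counted at 1 or more in size. The counting intervals (95%) were Clopper-Pearson for ratios, Wilson for shares, exact Poisson for levels and a normal approximation on log counts for pairs of members. The planned limma fit (mean-variance trend, mean of at least 1 RPM, Benjamini-Hochberg adjustment) used the 484 names of both tables. Other settings were unscaled reads, other scalings, minimums and pseudocounts, listed zeros set to 0.92 RPM, and sums without the leading member.

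The members and lists were chosen with earlier results of these data known. The named microRNAs were the 10 members, the other arms of their hairpins, the paralogous cluster, all others with a member's seed, and the 3 nearest to the members' median. Of the 1915 names, 1623 matched a RefSeq mature sequence, and hosts were read from GENCODE vM21 (GRCm38). The scripts were tested on simulated data. Tools were limma 3.58.1 (R 4.3.3), and matplotlib 3.10.9, scipy 1.17.1, pandas 2.3.3 and numpy 2.4.6 under Python 3.11.15.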

Additional observations from a re-analysis of the deposited data

Results flagged for a closer look

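For 3 abundant members the counting intervals lay on opposite sides of 0 in the 2 experiments, above 0 in experiment 1 and below 0 in experiment 2. The log2 ratio of experiment 2 minus that of experiment 1 was -0.47 for miR-92a-3p, -0.77 for miR-93-5p and -0.55 for miR-25-3p. With 1 library per condition in each experiment, these differences were not tested across samples. With totals that leave out the most abundant microRNA, the intervals of miR-93-5p and miR-25-3p in experiment 1 held 0. The summed red cell microRNAs, a sum carried by miR-486a-5p in experiment 1, were 2.93-fold higher in the ethanol-fed library of that experiment. In experiment 2 they were at 0.631-fold of the pair-fed level, and their part in these differences was not tested.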

How the results depend on the processing

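Of 95 values of single members under the alternatives, 93 stayed within the counting interval of the reported value, and 2 changed sign within it (miR-92a-1-5p in experiment 1, to -0.016 and -0.00073). The 2 that moved further were those of miR-92a-1-5p in experiment 2, whose 0 was listed for any value under 0.92 RPM. Its log2 ratio of 3.70 was 1.14 with a pseudocount of 10 reads, 0.24 with zeros at the lowest listed value and 6.92 with a pseudocount of 0.1 read, the last counted as within an interval that has no upper bound. The count of members at least 2-fold apart in experiment 2 went from 2 to 1 with these zeros and with a minimum of 100 reads. Without the leading member, the log2 ratio of the miR-17-92 sum went from 0.23 to -0.21 (experiment 1) and from -0.29 to -0.74 (experiment 2), and that of miR-106b-25 from 0.07 to 0.20 and from -0.52 to -0.59. Other scalings moved the log2 ratios of the members by a median of at most 0.048 within an experiment. That was enough for 3 narrow intervals of experiment 1 to take in 0. They were those of miR-19b-3p (-0.14 with median-of-ratios scaling, -0.12 unscaled), and of miR-93-5p (0.15) and miR-25-3p (0.02) with the most abundant microRNA left out. The limma fit called 0 microRNAs under 5 of the 6 alternatives, with 0 to 15 at an unadjusted p under 0.05 over the 6. With no minimum it called 1 of 484, miR-182-5p, which is not a member, and the lowest adjusted p of a member was between 0.848 and 0.999. Without the experiment as a replicate block, 0 were called. Fits without 1 library were not run, since they leave 0 residual degrees of freedom. For the members under 100 reads in experiment 1 (miR-17-5p, miR-18a-5p, miR-20a-5p, miR-92a-1-5p and miR-106b-5p), differences within the printed intervals were not detectable at this depth.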
